A study of Canis lupus familiaris with 25 samples.

Results

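The comparison held the 4 lymph node metastases of canine apocrine gland anal sac adenocarcinoma (AGASAC) and the primary tumors of the same 4 dogs. These were 8 of the 25 samples of the series and 8 of its 15 AGASAC samples, and they were chosen by the dog numbers in the labels alone. The other samples were 7 primary AGASAC without a sampled metastasis, used here only to show the spread between dogs, and 10 hepatoid gland adenomas, which were not used. Every sample was formalin-fixed, paraffin-embedded tissue cut as scrolls from entire cross sections, and the study's methods state that tissue next to the tumor was taken away with the aim of mostly tumor cells. No dog of the 4 had more than 1 metastasis sequenced.

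Dog 1 was a 9-year-old neutered female Rhodesian Ridgeback, and dog 2 a 9-year-old neutered male Border Collie. Dog 3 was a 10-year-old neutered male mixed-breed dog, and dog 4 an 8-year-old female Labrador Retriever. The metastases came from lymph nodes of the sublumbar region, and the labels give no treatment for either site. Breed, sex and age differed between the dogs and were the same within a pair.

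AGASAC arises from the apocrine glands in the wall of the anal sac and spreads early to the lymph nodes that drain the perianal region. Its cells express keratins of simple epithelium, and some tumors release parathyroid hormone-related protein, the product of PTHLH, which raises blood calcium. A normal lymph node holds B cell follicles, T cell zones marked by the chemokines CCL19 and CCL21, and a stroma of reticular and endothelial cells. The perianal primary site lies beside the external anal sphincter, a skeletal muscle.

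The libraries were made with QuantSeq 3′, which counts reads near the 3′ end of each transcript, and held 2857541 to 3505749 counts on genes. The DV200, the share of RNA fragments over 200 nucleotides, was 71.8% to 84.4%. The pair shared an RNA extraction batch in 3 of 4 dogs, and the pair of dog 4 was split over separate batches. Levels are given as counts per 1000000 counts (CPM) after TMM scaling over the 15 AGASAC samples. Where a gene had no count, up to 3 counts remain possible (0.870 to 1.04 CPM over the 8 libraries), a limit for counting error only.

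The metastases resembled the primary tumor of their own dog more than any other sample. Across 12629 genes, the Pearson correlation of log2 CPM between metastasis and primary tumor was 0.958 in dog 1, 0.910 in dog 2, 0.935 in dog 3 and 0.892 in dog 4. Against the 13 other AGASAC samples, the highest correlation of a metastasis was 0.848, 0.848, 0.862 and 0.843 in the same order. The most similar of all 14 other samples was the partner from the same dog for 8 of the 8 samples. These values are descriptions across genes, which are not independent replicates, and the samples of a dog share its genome and in 3 dogs the extraction batch.

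**Figure D1:**
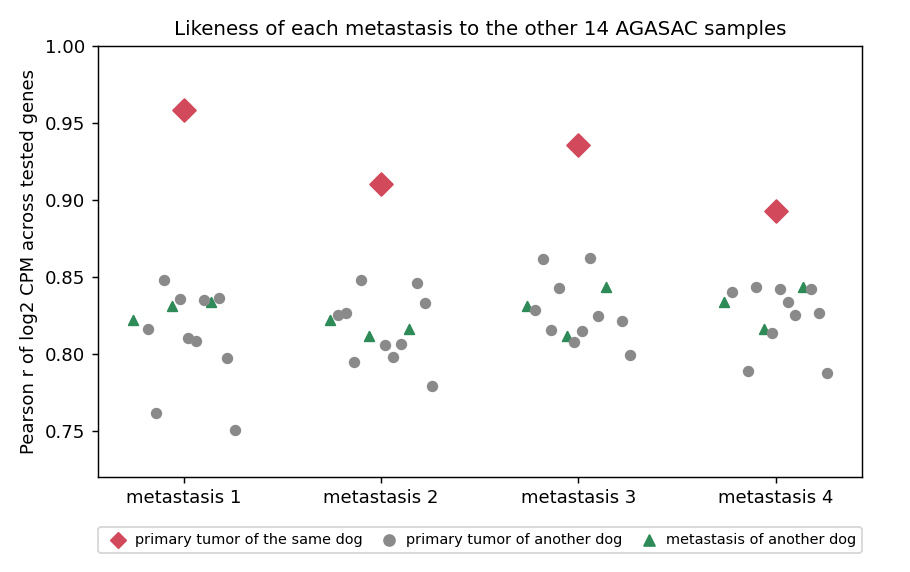
Pearson correlation of log2 CPM across 12629 genes (y axis) between each of the 4 metastases (x axis) and each of the 14 other AGASAC samples, with red diamonds for the primary tumor of the same dog, gray circles for primary tumors of other dogs and green triangles for the other metastases. The red diamonds lie at 0.892 to 0.958, and every other point lies at 0.862 or below.

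The differences between the 2 sites showed little correlation from dog to dog. With 1 library per site and dog, noise and change in a dog cannot be told apart. Noise widens the SD and lowers the correlations given here. The log2 difference between metastasis and primary tumor had an SD across genes of 0.576 in dog 1, 0.816 in dog 2, 0.666 in dog 3 and 0.869 in dog 4. A log2 difference of at least 1 in size was seen in 7.70% of the genes in dog 1, 14.8% in dog 2, 10.8% in dog 3 and 15.8% in dog 4. The correlation of these differences between 2 dogs was −0.043 to 0.086 over the 6 pairs of dogs, whose values share no sample. All 4 dogs had a higher value in the metastasis in 835 genes and a lower one in 723 genes, together 12.3% of the genes tested.

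The test of the 4 pairs called 1 gene. Of 12629 genes tested with edgeR's quasi-likelihood test with dog as a block, 0 were called higher and 1 was called lower in the metastases when a call required both a log2FC of 1 or more in size and a Benjamini-Hochberg adjusted p no higher than 0.05, which is 0.00792% of the genes. An unadjusted p under 0.05 was found for 491 genes (3.89%), of which 275 had higher and 216 lower values in the metastases. The median log2FC of all genes tested was 0.00088. The called gene was ACTA1, the α-actin of skeletal muscle, which passed the filter on low counts through the primary tumors, where it was high. The adjusted p of the same test was 0.364 for MYL1 and OGN, 0.913 for SPOCK2 and IGF2, and 0.999 to 1.00 for every other gene, so differences named below for genes other than ACTA1 did not pass the test.

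**Figure D2:**
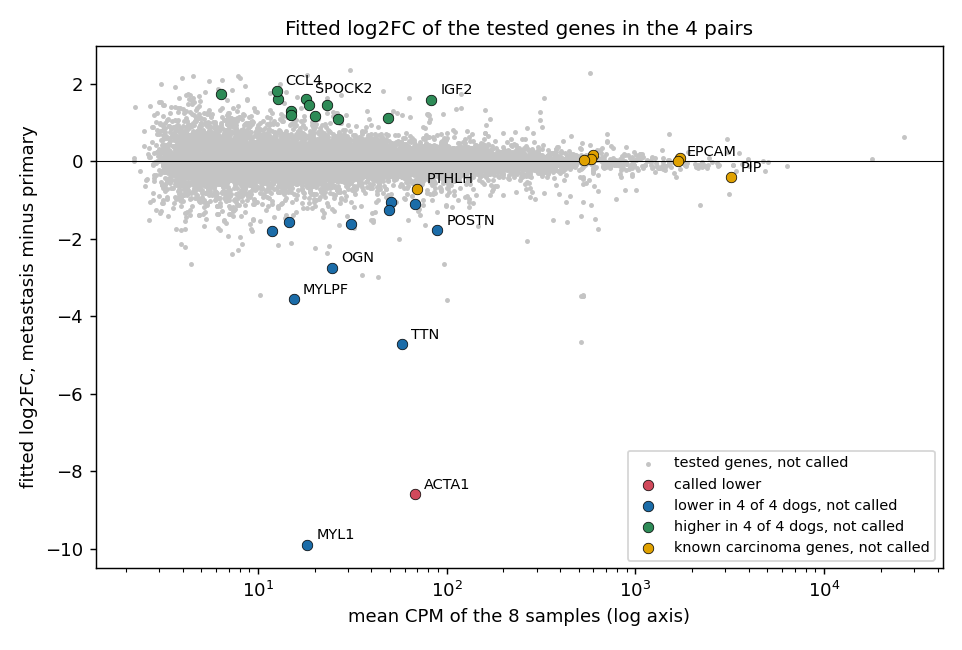
Fitted log2FC of metastasis over primary tumor (y axis) against the mean CPM of the 8 samples (x axis, log scale) for 12629 tested genes. ACTA1, in red, was the called gene at −8.59, and the genes with the smallest p that had the same direction in 4 of 4 dogs (blue and green) and the known carcinoma genes (yellow) were not called by this test, although DESeq2 called MYL1, MYLPF, OGN, POSTN, IGF2 and SPOCK2 among them.

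ACTA1 fell in the metastases of all 4 dogs. Its levels were 12.3, 264, 8.61 and 259.7 CPM in the primary tumors of dogs 1 to 4 and 0, 0.580, 0 and 0.683 CPM in their metastases. In counts, the primary tumors held 38, 761, 27 and 860 and the metastases 0, 2, 0 and 2. The 2 groups did not overlap, and the primary tumors of dogs 2 and 4 were far above those of dogs 1 and 3. The level was at least 11.9-fold lower in dog 1 and at least 8.34-fold lower in dog 3, where the metastasis had a count of 0. It was 455-fold lower in dog 2 (95% counting interval 125 to 3762) and 380.1-fold lower in dog 4 (105 to 3144). The fitted log2FC was −8.59 (SE 0.303, 95% interval −9.29 to −7.88), with an adjusted p of 1.03e-04 by edgeR's test. This SE was taken from the F statistic, and with 4 counts over the 4 metastases its interval is too narrow to cover counting error. DESeq2 gave a log2FC of −8.40 with an SE of 0.704. All 4 metastases lay below the range of the 11 primary tumors, which was 3.90 to 543 CPM. The call was lost without the block (adjusted p = 1.00), with limma-voom (0.0628) and against all 11 primary tumors (1.00), and it held without any 1 dog, with adjusted p of 0.00146 to 0.00850. These libraries are of bulk tissue, in which fewer cells of a type and less RNA per cell cannot be told apart.

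Other genes of skeletal muscle showed the same pattern of values but were not called by the paired edgeR test with its filter, while DESeq2 or edgeR without a filter called some of them, as given below. Of a list of 19 genes of the contractile apparatus, all were measured, 8 had lower values in the metastasis of all 4 dogs and 0 had higher ones in all 4, and MYH4 was at 0 in all 8 libraries. Some of these differences were within the limit of 3 counts, such as 1 against 0 for TNNI1 and 2 against 0 for TNNT3 in dog 3. Among the 22156 genes with a count in the 8 libraries, 3.89% were lower and 4.97% were higher in the metastasis of all 4 dogs. After filtering for low counts 4 of the 19 were tested. These 4 passed through the primary tumors, where they were high, and such a selection favors genes that are lower in the metastases. The median log2FC of these 4, −6.66, describes genes kept by that filter and is no support for a difference. MYL1, a myosin light chain of fast fibers, had 13, 271, 13 and 146 counts in the primary tumors and 0 in each metastasis. Against the limit of 3 counts, MYL1 was at least 4.08-fold lower in dog 1, at least 108-fold in dog 2, at least 4.01-fold in dog 3 and at least 43.0-fold in dog 4.

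TTN encodes titin, the spring protein of the sarcomere, and had 12.9, 236, 10.2 and 191 CPM in the primary tumors of dogs 1 to 4 and 5.14, 5.51, 0.689 and 0.342 CPM in their metastases. MYLPF, another fast-fiber light chain, had 6.13, 54.0, 6.06 and 50.4 CPM in the primary tumors of dogs 1 to 4 and 2.74, 1.45, 1.72 and 1.02 CPM in their metastases. For both genes the groups did not overlap, as in 0.507% of all tested genes with lower metastases, and dogs 2 and 4 again had the high primary tumors. The lowest of the 11 primary tumors was at 1.04 CPM for TTN and 0 CPM for MYLPF. The fitted log2FC was −4.73 (SE 0.962, 95% interval −6.98 to −2.48) for TTN and −3.56 (SE 0.791, 95% interval −5.41 to −1.71) for MYLPF. CKM, the muscle creatine kinase, had 259 counts over the 4 primary tumors and 0 over the 4 metastases, and NEB, which encodes nebulin, had 265 and 8. Counts of MYH1 and MYH2 are uncertain, because these near-identical myosin genes can share reads, which the authors split evenly.

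Summed over the list, the level was 48.7, 908, 40.8 and 712 CPM in the primary tumors of dogs 1 to 4 and 11.3, 9.57, 7.58 and 9.91 CPM in the metastases. The metastases spanned 7.58 to 11.3 CPM, while the primary tumors ranged from 40.8 to 908 CPM. The groups did not overlap. The summed level of smooth muscle genes did not follow this pattern. It was 107, 369.7, 301 and 744 CPM in the primary tumors and 102, 971, 194 and 271 CPM in the metastases, with the highest value in the metastasis of dog 2. TAGLN and ACTA2 had the highest mean levels of that list. DES, a lower member, had 1.29, 36.7, 0.319 and 54.1 CPM in the primary tumors and 1.03, 0.290, 2.41 and 6.83 CPM in the metastases, lower in dogs 1, 2 and 4. Within that list TPM2, a tropomyosin used by smooth and skeletal muscle, had 10.6, 58.6, 15.3 and 81.8 CPM in the primary tumors of dogs 1 to 4 and 4.79, 51.3, 6.89 and 7.86 CPM in their metastases, lower in 4 of 4 dogs.

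DESeq2's Wald test with dog as a block called 10 genes, 2 higher and 8 lower. This is 0.0451% of the 22156 genes with a count, but DESeq2 can leave genes of low mean level without an adjusted p. The 8 were ACTA1, MYL1, MYLPF, NEB, MYH8 and SLN, of which the last regulates the calcium pump of muscle, and the matrix genes POSTN and OGN. The 2 called higher were IGF2 and SPOCK2. With no filter on low counts, edgeR called 21 genes (0.0948%), 6 higher and 15 lower, and 9 of the 10 genes of DESeq2 were among them. That list also held genes counted in 1 library only, such as SERPINB7 with 221 and SULT1D1 with 254 counts in the primary tumor of dog 4 and 0 in the other 7 libraries.

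Lymphocyte genes were low in both sites, and several T cell genes were higher in the metastasis of every dog without passing the test. Of 20 T cell genes, all measured, 8 had higher values in the metastasis of all 4 dogs, 0 had lower ones in all 4 (against 4.97% and 3.89% of all genes with a count), and BCL11B was at 0 in all 8 libraries. Of the 11 tested, 0 were called, and the median log2FC was 1.05 beside 0.00088 for all genes. The summed level was 60.9, 56.5, 40.5 and 89.7 CPM in the primary tumors and 96.6, 109.9, 138 and 112 CPM in the metastases, so the groups did not overlap.

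CD3G, a subunit of the T cell receptor complex, had 2.58, 3.12, 4.15 and 8.46 CPM in the primary tumors of dogs 1 to 4 and 13.4, 11.3, 12.7 and 14.0 CPM in their metastases. CD3E, another subunit, had 4.51, 3.81, 4.78 and 7.55 CPM in the primary tumors of dogs 1 to 4 and 8.22, 11.3, 15.2 and 12.3 CPM in their metastases. In both genes the lowest metastasis was above the highest primary tumor, which was so in 0.697% of all tested genes. Their log2FC in the fit was 1.59 (SE 0.386, 95% interval 0.69 to 2.49) for CD3G and 1.19 (SE 0.350, 95% interval 0.37 to 2.01) for CD3E, with unadjusted p of 0.00398 and 0.0108 and an adjusted p of 0.999 for each by edgeR's test. The metastases were not outside the spread of AGASAC from other dogs, since the 11 primary tumors reached 18.8 CPM for CD3G and 30.6 CPM for CD3E. CD3D and CD8B differed from this pattern, with log2 differences of 1.08, 0.35, 2.26 and −2.08 for CD3D and −0.92, 0.060, 1.47 and −0.99 for CD8B in dogs 1 to 4.

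**Figure D3:**
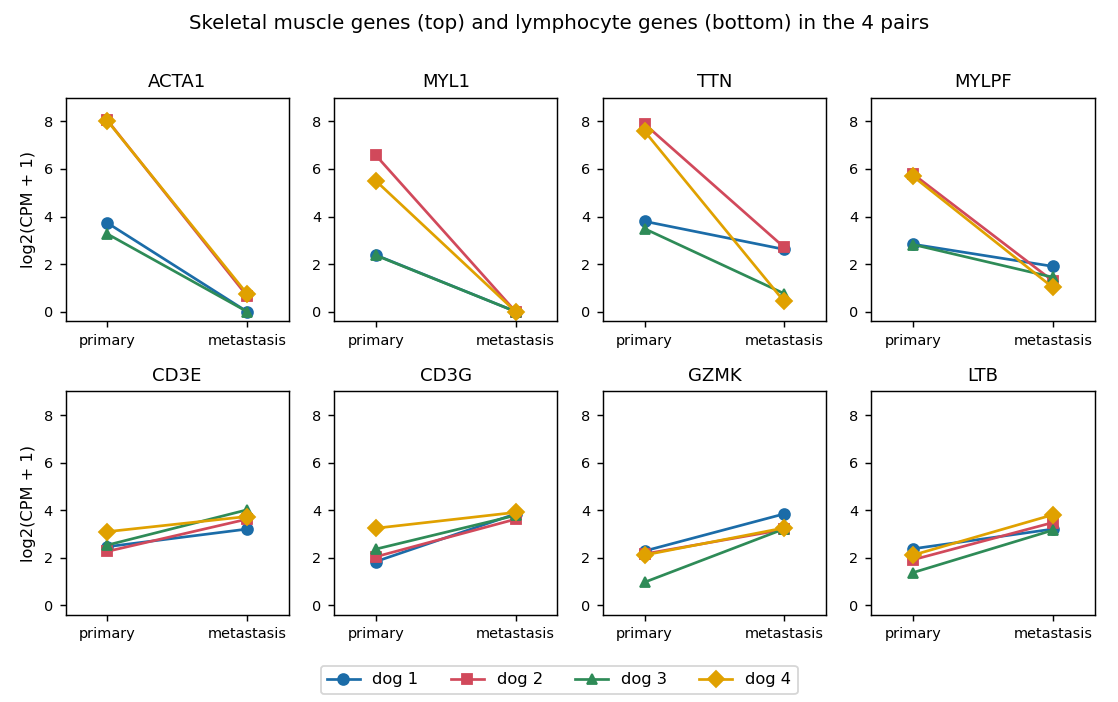
Level of 4 skeletal muscle genes (top) and 4 lymphocyte genes (bottom) as log2(CPM + 1) (y axis) in the primary tumor and the metastasis (x axis), with 1 line per dog. ACTA1 was called lower, and the other 7 genes had the same direction in 4 of 4 dogs and were not called by the paired edgeR test, although DESeq2 called MYL1 and MYLPF and edgeR without a filter called MYL1, MYLPF and TTN.

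Genes of the lymph node's own structure ranged widely in level. Of 9 measured genes of node stroma, 5 were tested and 0 were called, while CCL19 and CXCL13 were too low to be tested. CCL21, the chemokine of the T cell zone, had 0.322, 7.97, 0.638 and 5.44 CPM in the primary tumors of dogs 1 to 4 and 0.685, 4.64, 4.48 and 5.47 CPM in their metastases. CCL19, which acts on the same receptor, had 2.40, 3.48, 8.95 and 5.12 CPM in the metastases and 0.967, 0.693, 0.957 and 1.81 CPM in the primary tumors. CCL19 was higher in the metastasis of 4 of 4 dogs, without overlap with the matched primary tumors, but the 11 primary tumors reached 22.5 CPM. CR2 and CXCL13, which mark follicles, reached at most 4.79 and 3.07 CPM in the metastases. The summed level of 9 measured genes of node stroma was 50.9, 81.8, 76.2 and 111 CPM in the primary tumors and 55.5, 97.4, 69.6 and 101 CPM in the metastases, and these overlapped. PDPN and LTBR had the highest mean levels of the list and so weighed most in this sum. The list also held PDPN, a glycoprotein of stromal and lymphatic cells, with 9.03, 37.8, 36.7 and 39.3 CPM in the primary tumors of dogs 1 to 4 and 8.56, 41.5, 7.92 and 6.49 CPM in their metastases, and LTBR, the lymphotoxin receptor, with 27.4, 26.3, 24.6 and 31.4 CPM in the primary tumors of dogs 1 to 4 and 29.5, 27.8, 26.5 and 35.5 CPM in their metastases. LTB, a lymphocyte cytokine needed to form lymph nodes, was in this list at 4.19, 2.77, 1.59 and 3.32 CPM in the primary tumors and 8.22, 10.1, 7.92 and 13.0 CPM in the metastases, without overlap. The 11 primary tumors reached 21.0 CPM for LTB.

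B cell genes differed in direction between dogs in their summed level. Of 17 measured, 2 were higher in the metastasis of all 4 dogs, PAX5 and CD79B, which were both too low to be tested (against 4.97% of all genes with a count). In dog 4, PAX5 had 0 counts in the primary tumor and 3 in the metastasis. The 7 tested genes had a median log2FC of 0.61, and 0 were called. The B cell marker MS4A1, which encodes CD20, had 5.48, 1.39, 0 and 0 CPM in the primary tumors of dogs 1 to 4 and 5.14, 3.77, 3.79 and 5.12 CPM in their metastases. The summed level of the list was 90.6, 105, 51.4 and 79.4 CPM in the primary tumors and 119, 82.3, 90.6 and 71.7 CPM in the metastases. JCHAIN, which joins secreted antibody of plasma cells, had 100.3, 50.6, 48.2 and 41.7 CPM in the primary tumors of dogs 1 to 4 and 72.9, 178, 41.7 and 106 CPM in their metastases, with higher values in the metastases of dogs 2 and 4.

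Myeloid and cytotoxic genes varied by dog. The macrophage and dendritic cell list, with 20 genes measured, summed to 325, 545, 370.0 and 551 CPM in the primary tumors and 325, 836, 288 and 482 CPM in the metastases. C1QA, a complement gene of macrophages, had 69.6, 134, 90.3 and 101 CPM in the primary tumors of dogs 1 to 4 and 45.5, 151, 57.9 and 77.9 CPM in their metastases, and only the metastasis of dog 2 was above its primary tumor. GZMK, a granzyme of cytotoxic lymphocytes, was at 3.87, 3.46, 0.957 and 3.32 CPM in the primary tumors and 13.4, 8.12, 8.26 and 8.54 CPM in the metastases, without overlap. Its fitted log2FC was 1.76 (SE 0.445, 95% interval 0.72 to 2.80), and the 11 primary tumors reached 25.4 CPM. GZMA, of the same family, had 3.87, 3.81, 4.47 and 13.3 CPM in the primary tumors of dogs 1 to 4 and 3.42, 2.90, 10.7 and 5.12 CPM in their metastases and overlapped. Of 15 measured genes of antigen presentation, 4 were higher in the metastasis of all 4 dogs. The same held for 4.97% of all genes with a count and for 835 of the 12629 genes tested. Among the 4 was CIITA, the master regulator of MHC class II genes, at 4.51, 4.50, 4.78 and 8.76 CPM in the primary tumors and 9.93, 19.4, 9.99 and 11.6 CPM in the metastases. DLA-DRA, a class II chain, was higher in dogs 1, 2 and 3 and lower in dog 4, with log2 differences of 0.32, 1.34, 0.63 and −0.76.

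The summed level of fibroblast and collagen genes was lower in the metastases of 3 dogs and higher in that of dog 2. Not every member was lower in dog 1, where COL5A1 and COL6A3 had log2 differences of 0.46 and 0.84. The 20 genes of this list were all tested and 0 were called by the paired edgeR test (POSTN was called lower by DESeq2 and by edgeR without a filter), with a median log2FC of −0.75. Their summed level was 1374, 9140.2, 9029.6 and 10646 CPM in the primary tumors and 978, 16889, 1815 and 3853 CPM in the metastases, which are log2 ratios of −0.49, 0.89, −2.31 and −1.47. COL1A1, a chain of type I collagen, had 312, 4370.2, 4084 and 4948 CPM in the primary tumors of dogs 1 to 4 and 257, 8720.2, 652 and 1769 CPM in their metastases. COL1A2, its partner chain, had log2 differences of −0.36, 1.03, −2.28 and −1.28, and COL3A1, of type III collagen, of −0.84, 1.00, −2.90 and −1.68.

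The matrix gene POSTN was an exception in dog 2. POSTN, which encodes periostin, had 29, 416, 63.8 and 67.7 CPM in the primary tumors of dogs 1 to 4 and 22.9, 84.6, 14.1 and 14.7 CPM in their metastases and was lower in the metastasis of 4 of 4 dogs, while the collagens of dog 2 were higher. Its fitted log2FC was −1.79 (SE 0.343, 95% interval −2.59 to −0.99). PDGFRA, a fibroblast receptor, was the other of the 2 genes of the list that were lower in all 4 dogs, with log2 differences of −0.58, −0.069, −0.99 and −1.61. Such a fall was seen in 3.89% of all genes with a count and in 723 of the 12629 genes tested. OGN, a small matrix proteoglycan outside the list, had 1.93, 157, 7.02 and 9.97 CPM in the primary tumors of dogs 1 to 4 and 0, 19.4, 1.72 and 1.71 CPM in their metastases, and the groups overlapped because dog 2 was high at both sites. FN1, which encodes fibronectin, followed the collagens, with log2 differences of 0.11, 1.86, −2.54 and −3.41. The summed levels of the matrix proteases and their inhibitors had log2 ratios of −0.077, 1.09, −0.44 and −0.87 in dogs 1 to 4.

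**Figure D4:**
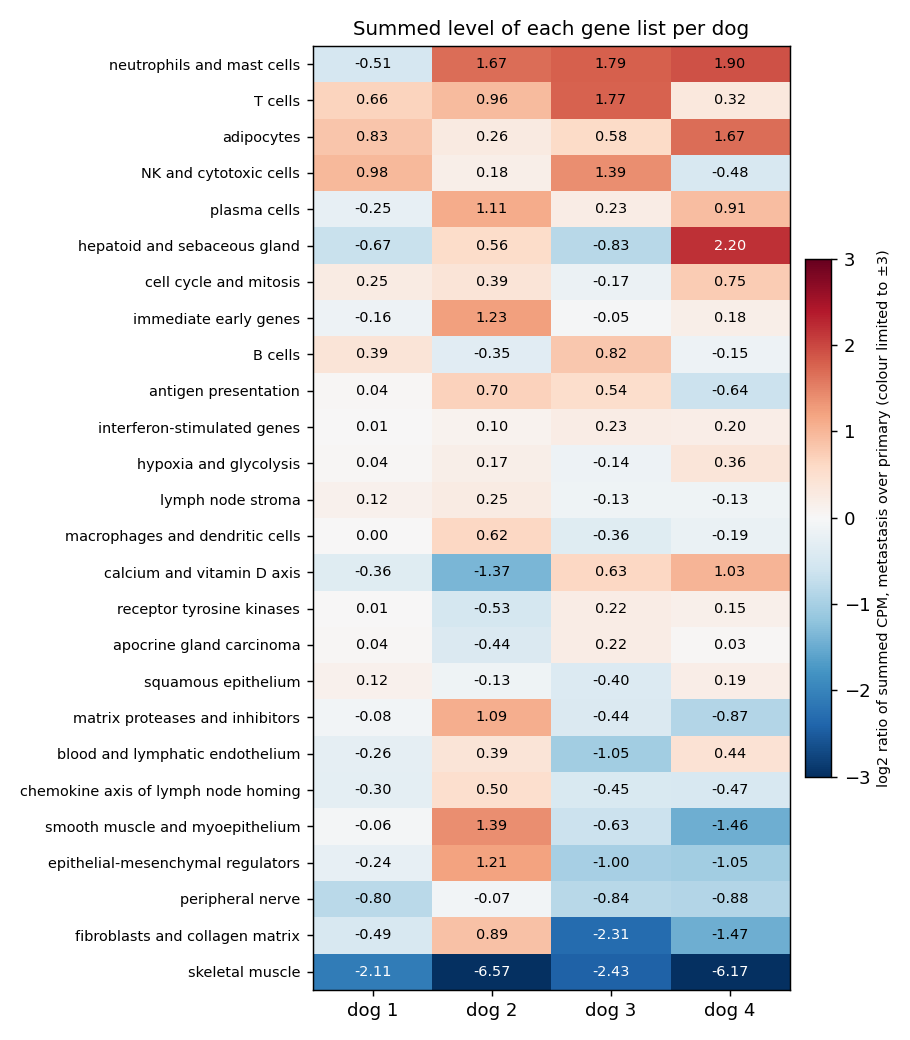
Log2 ratio of the summed CPM of each gene list, metastasis over primary tumor, in dogs 1 to 4 (columns), with lists (rows) ordered by their mean over dogs and the value printed in each cell. Skeletal muscle, peripheral nerve and fibroblast lists are at the bottom, and the fibroblast list is at 0.89 in dog 2 and at −0.49 to −2.31 in the other dogs.

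Among the genes with the smallest p that were higher in the metastasis of all 4 dogs, the paired edgeR test called none, while DESeq2 and edgeR without a filter both called SPOCK2 and IGF2. SPOCK2, a secreted proteoglycan, had 9.35, 9.70, 6.70 and 9.66 CPM in the primary tumors of dogs 1 to 4 and 32.5, 21.2, 26.5 and 28.4 CPM in their metastases, without overlap. The 11 primary tumors reached 58.9 CPM for SPOCK2, above every metastasis. IGF2, an insulin-like growth factor, had 16.8, 29.1, 25.5 and 64.3 CPM in the primary tumors of dogs 1 to 4 and 32.9, 80.0, 64.7 and 351 CPM in their metastases, and its metastasis of dog 4 was above all 11 primary tumors, whose highest value was 96.4 CPM. The fitted log2FC was 1.61 (SE 0.253, 95% interval 1.02 to 2.2) for SPOCK2 and 1.58 (SE 0.255, 95% interval 0.98 to 2.18) for IGF2. The remaining 10 of these 12 genes were ADIPOQ, IRF8, KCNA3, CCL4, PITPNM3, FYB1, GM2A, C6, LTB and KIAA0586, with log2FC of 1.08 to 1.82. ADIPOQ, the fat cell hormone adiponectin, had 12.6, 2.08, 1.91 and 21.1 CPM in the primary tumors of dogs 1 to 4 and 21.2, 6.96, 5.17 and 78.9 CPM in their metastases. The 11 primary tumors reached 427 CPM for ADIPOQ and 563 CPM for GM2A, and against all 11 the log2FC turned to −1.85 and −1.58. IRF8, a transcription factor of B cells and myeloid cells, had 14.2, 10.4, 6.38 and 4.53 CPM in the primary tumors of dogs 1 to 4 and 27.4, 27.0, 13.1 and 17.1 CPM in their metastases. CCL4, a chemokine of activated leukocytes, was at 2.90, 3.46, 5.74 and 10.9 CPM in the primary tumors and 12.7, 29, 16.2 and 19.8 CPM in the metastases, without overlap. The 11 primary tumors reached 34.9 CPM for CCL4.

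The genes with the smallest p that were lower in all 4 dogs, beside ACTA1, were MYL1, OGN, POSTN, TTN, PDLIM3, MYLPF, UGT8, CALCRL, LTBP1, CXCL14 and TM4SF1. PDLIM3, a protein of the muscle Z-line, had 1.29, 28.8, 2.23 and 42.9 CPM in the primary tumors of dogs 1 to 4 and 0.342, 5.51, 1.38 and 13.0 CPM in their metastases. CALCRL, a receptor for adrenomedullin and calcitonin gene-related peptide that is high in endothelium, had 13.5, 176, 3.19 and 12.1 CPM in the primary tumors of dogs 1 to 4 and 7.53, 33, 2.75 and 2.39 CPM in their metastases. CXCL14, a chemokine of epithelia and fibroblasts, had 8.70, 122, 42.1 and 88.8 CPM in the primary tumors of dogs 1 to 4 and 4.45, 99.7, 14.1 and 18.4 CPM in their metastases. In CALCRL and CXCL14 the groups overlapped, and dog 2 had the highest primary tumor. UGT8, an enzyme of galactosylceramide synthesis, had 23.2, 12.5, 27.1 and 21.7 CPM in the primary tumors of dogs 1 to 4 and 16.8, 4.06, 7.58 and 3.42 CPM in their metastases. MBP, a myelin protein in the list of peripheral nerve, had 23.9, 36, 22.6 and 74.9 CPM in the primary tumors of dogs 1 to 4 and 13.0, 34.5, 12.7 and 39.6 CPM in their metastases.

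The carcinoma's own genes gave no call and had log2FC near 0 on average. Of 22 genes of this carcinoma and of epithelium, 21 were measured and tested, 0 were called, and the median log2FC was 0.033. Their summed level was 18395, 21243, 19863 and 18466 CPM in the primary tumors and 18886, 15613, 23086 and 18888 CPM in the metastases. EPCAM, an epithelial adhesion protein, had 1462, 1451, 1778 and 2035 CPM in the primary tumors of dogs 1 to 4 and 1532, 1602, 1634 and 1936 CPM in their metastases. Its log2FC was 0.0039, with a 95% interval of −0.34 to 0.35. The keratins of simple epithelium had log2FC with 95% intervals of 0.055 (−0.47 to 0.58) for KRT7, 0.039 (−0.51 to 0.59) for KRT8, 0.16 (−0.24 to 0.56) for KRT18 and 0.075 (−0.32 to 0.47) for KRT19. These intervals leave room for changes of up to about that size in either direction. KRT19 had 2327, 1062, 1819 and 1343 CPM in the primary tumors of dogs 1 to 4 and 2544, 865, 2358 and 1431 CPM in their metastases.

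GATA3, a transcription factor of glandular epithelium, had 4148, 4715, 3949 and 3789.8 CPM in the primary tumors of dogs 1 to 4 and 4782, 2918, 4787 and 3000.2 CPM in their metastases, and its log2FC was −0.14 (−0.63 to 0.36). TFAP2B, another transcription factor of this list, had a log2FC of 0.018 (−0.40 to 0.44). PIP, the prolactin-induced protein that apocrine glands secrete, had 2504, 3119.5, 4838 and 3717 CPM in the primary tumors of dogs 1 to 4 and 1674, 1958, 5607 and 2426 CPM in their metastases. PIP was lower in the metastasis in dogs 1, 2 and 4 and higher in dog 3, with a log2FC of −0.42 (−0.89 to 0.053) and an unadjusted p of 0.0747 (adjusted 0.999 by edgeR's test).

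Some genes of this list had large differences in single dogs. PIGR, the receptor that carries antibody across epithelium, had 75.4, 11.8, 790.1 and 1318 CPM in the primary tumors of dogs 1 to 4 and 100.3, 0, 1023 and 1477 CPM in their metastases, with a count of 0 in the metastasis of dog 2. AZGP1, a secreted protein of glandular epithelium, had log2 differences of −0.034, 0.68, −2.26 and 4.33, with opposite directions in dogs 3 and 4. QRFPR, a neuropeptide receptor, had 490.4, 2321, 744 and 347 CPM in the primary tumors of dogs 1 to 4 and 616, 1635, 1417 and 73.1 CPM in their metastases. These directions differed between dogs in all 3 genes.

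PTHLH had no common direction. Its levels were 34.2, 156, 1.28 and 84.0 CPM in the primary tumors of dogs 1 to 4 and 13.4, 15.7, 3.1 and 252 CPM in their metastases. The metastasis was lower than the primary tumor in dogs 1 and 2 and higher in dogs 3 and 4, with log2 differences of −1.31, −3.26, 0.96 and 1.58. The fitted log2FC of PTHLH was −0.71 (SE 0.873, 95% interval −2.75 to 1.34), which was 0.42 without dog 2. The metastasis of dog 4, at 252 CPM, was above the 11 primary tumors, which ranged from 0 to 231 CPM. In the rest of the list of calcium genes, TRPV6, an epithelial calcium channel, had 143, 168, 148 and 54.1 CPM in the primary tumors of dogs 1 to 4 and 127, 105, 231 and 21.9 CPM in their metastases, and 0 of the list were called.

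**Figure D5:**
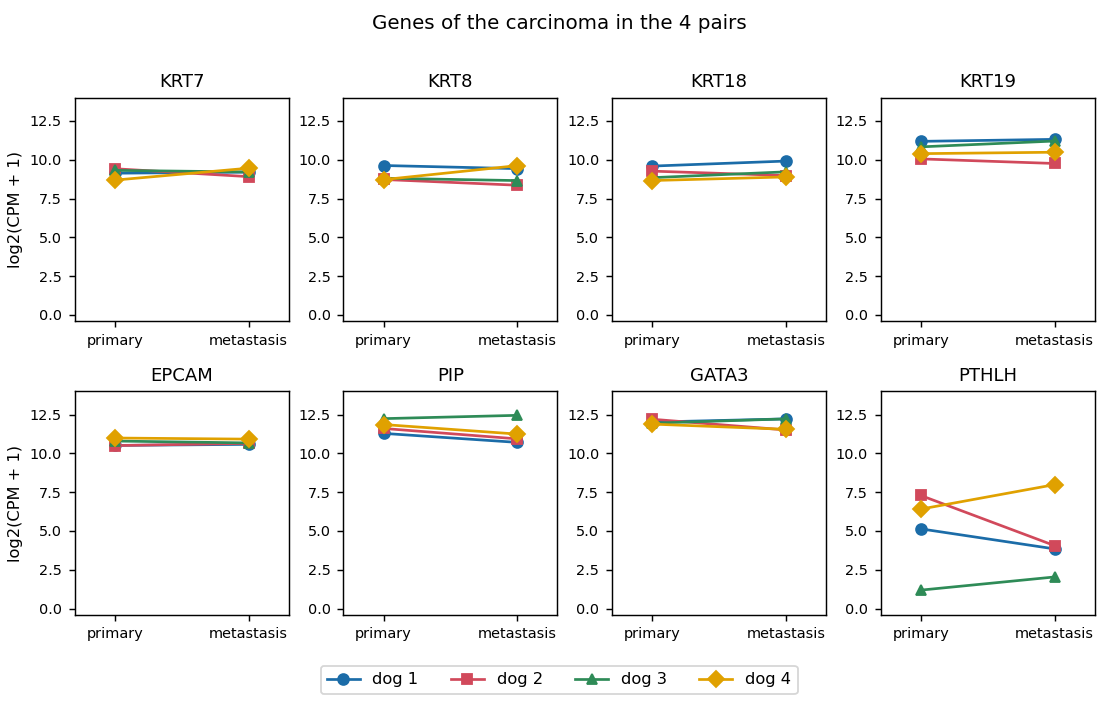
Level of 8 genes of the carcinoma as log2(CPM + 1) (y axis) in the primary tumor and the metastasis (x axis), with 1 line per dog. The log2 differences of EPCAM lie between −0.12 and 0.14, KRT8 reaches 0.90 in dog 4 and GATA3 −0.69 in dog 2, and PTHLH has log2 differences from −3.26 in dog 2 to 1.58 in dog 4.

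Receptor tyrosine kinases, several of them drug targets, gave 0 calls among 13 tested genes. ERBB2 had 142, 157, 147 and 143 CPM in the primary tumors of dogs 1 to 4 and 117, 126, 137 and 126 CPM in their metastases, lower in 4 of 4 dogs by small amounts, with a log2FC of −0.22 (−0.54 to 0.092). ERBB3, its partner, had 28.4, 175, 145 and 346 CPM in the primary tumors of dogs 1 to 4 and 8.22, 25.8, 337 and 323 CPM in their metastases, which is lower in dogs 1 and 2 and higher in dog 3. FGFR1, a fibroblast growth factor receptor, had a log2FC of 0.082 (−0.34 to 0.50), and EGFR had log2 differences of 0.86, −0.94, −0.45 and 0.65.

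Cell cycle genes gave 0 calls and had a median log2FC above 0. Of 28 measured genes, 27 were tested and 0 were called, while 6 were higher in all 4 dogs and 0 were lower in all 4. This was so in 4.97% and 3.89% of all genes with a count, and in 835 and 723 of the 12629 genes tested. The median log2FC was 0.44 beside 0.00088 for all genes. The summed level was 951, 752, 1653 and 664 CPM in the primary tumors and 1133, 982, 1464 and 1119 CPM in the metastases, so it was higher in dogs 1, 2 and 4 and lower in dog 3, whose primary tumor had the highest value. UBE2C, a ubiquitin enzyme that acts at the end of mitosis, had 22.6, 11.8, 34.4 and 15.1 CPM in the primary tumors of dogs 1 to 4 and 36, 18.6, 46.8 and 40.7 CPM in their metastases. MCM4, a subunit of the replicative helicase, had 32.6, 20.1, 25.5 and 17.5 CPM in the primary tumors of dogs 1 to 4 and 42.8, 33.6, 44.8 and 23.9 CPM in their metastases. TOP2A, the topoisomerase of dividing cells, had 56.7, 56.1, 199 and 40.2 CPM in the primary tumors of dogs 1 to 4 and 105, 95.1, 194 and 122 CPM in their metastases. Their log2FC was 0.79 (SE 0.229, 95% interval 0.26 to 1.33) for UBE2C, 0.60 (SE 0.186, 95% interval 0.16 to 1.04) for MCM4 and 0.79 (SE 0.258, 95% interval 0.19 to 1.40) for TOP2A. UBE2C and MCM4 were picked after their values were seen. PCNA and AURKB, with the highest mean levels of the list, had log2FC with 95% intervals of 0.11 (−0.46 to 0.67) and 0.18 (−0.16 to 0.52). PCNA was higher in 2 dogs and lower in 2, and AURKB was higher in 4 of 4.

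Other programs linked to spread gave 0 calls. The regulators of epithelial-mesenchymal transition had 9 of 12 measured genes tested, 0 called and a median log2FC of 0.010. CDH2, the N-cadherin gene, was at most 0.685 CPM in the 8 libraries, and the epithelial splicing factor ESRP1 had 200.2, 205, 158 and 221 CPM in the primary tumors of dogs 1 to 4 and 176, 210.2, 196 and 262 CPM in their metastases. VIM, which encodes vimentin, had log2 differences of −0.64, 0.80, −1.28 and −0.52, with the same dog apart as for the collagens. Genes of hypoxia and glycolysis had a median log2FC of 0.088, interferon-stimulated genes of 0.066 and immediate early genes of 0.36, with 0 called in each. Of the chemokine genes of lymph node homing, CXCR4 and its ligand were without a call, and the ligand CXCL12 had 37.7, 22.5, 38.6 and 42.6 CPM in the primary tumors of dogs 1 to 4 and 31.2, 31.9, 52.7 and 51.2 CPM in their metastases.

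Markers of other tissues were measured in both sites. The list of hepatoid and sebaceous gland had 5 of 8 genes at 0 in all 8 libraries and summed to at most 24.9 CPM. Squamous epithelium summed to 197, 187, 165 and 212 CPM in the primary tumors and 214, 171, 125 and 242 CPM in the metastases. Adipocyte genes summed to 17.1, 17.7, 5.74 and 29 CPM and 30.5, 21.2, 8.61 and 92.2 CPM, and the blood and lymphatic endothelium to 171, 238, 316 and 281 CPM and 143, 312, 153 and 382 CPM. With 0 genes called in each, the median log2FC of the tested genes was 0.45 for 5 genes of NK and cytotoxic cells, 0.36 for 4 of plasma cells and 0.68 for 2 of neutrophils and mast cells. It was 0.36 for 14 genes of antigen presentation, 0.065 for 5 chemokine genes, −0.53 for 2 calcium genes and −0.024 for 12 matrix proteases and inhibitors, and the 1 tested gene of peripheral nerve, MBP, had −0.66. How far any of these tissues contributes to the differences named above was not tested.

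Each dog had large differences of its own, here named after their values were seen as the largest among genes with a symbol and a mean of at least 20 CPM over the pair. A difference within 1 dog has no replicate and thus no test, and calls given below are of tests over the pairs. In dog 1, ANO1, a calcium-activated chloride channel, was at 40.9 CPM in the primary tumor and at a count of 0 in the metastasis, and GJA1, which encodes the gap junction protein connexin 43, was at 255 and 30.1 CPM. In dog 4, GJA1 was at 1016 CPM in the primary tumor and 3348 CPM in the metastasis. AMIGO2, an adhesion protein, was lower in the metastases of dogs 1, 2 and 4, with 131, 617, 0 and 6.04 CPM in the primary tumors of dogs 1 to 4 and 10.3, 34.8, 1.03 and 0.683 CPM in their metastases. Over the pairs, edgeR called AMIGO2 lower when dog 3 was left out and when no filter on low counts was used.

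In dog 2, CBLN2, a secreted synaptic protein, was at 413 CPM in the primary tumor and 1.74 CPM in the metastasis, while the other 3 dogs had 383, 72.4 and 939.6 CPM and 342, 51.7 and 1234 CPM. CRSP-2, a peptide of the calcitonin family, was at 23.6 CPM in the primary tumor of dog 2 and 1415 CPM in its metastasis, and it was at most 4.79 CPM in the samples of the other dogs. CRSP-3 and CRSP-4 showed the same, but these close copies can share reads, which makes the split between them uncertain. With no filter on low counts, edgeR called CRSP-3 and CRSP-4 higher over the pairs. Their counts lay mostly in the metastasis of dog 2, at 3134 and 384. MMP7, a matrix protease of epithelium, was at 1.73 and 87.5 CPM in dog 2 and at 216 and 31.8 CPM in dog 4.

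In dog 3, SLC7A11, the cystine transporter, was at 41.8 CPM in the primary tumor and 322 CPM in the metastasis. The same gene was at 1628 and 90.2 CPM in dog 2 and at 2337 and 30.7 CPM in dog 4, so the direction differed. PKHD1, a protein of epithelial cilia, was at 291 and 20.7 CPM in dog 3 and at 9.36 and 526 CPM in dog 4. In dog 4, CA4, a carbonic anhydrase, was at 193 CPM in the primary tumor and at a count of 0 in the metastasis, and GPR149, an orphan receptor, was at 587 and 2.73 CPM. The peptide VIP was at 1.51 and 287 CPM in dog 4, and DIO2, which activates thyroid hormone, was at a count of 0 in its primary tumor and at 99.4 CPM in its metastasis. Both values of the metastasis of dog 4 were above all 11 primary tumors, whose highest values were 6.45 CPM for VIP and 35.1 CPM for DIO2.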

How the data were processed

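The 8 libraries were QuantSeq 3′ libraries (FWD kit) of canine FFPE tissue. The authors trimmed the reads with Cutadapt, aligned them with STAR to CanFam3.1 and counted them on genes with featureCounts, in a second round on an annotation extended by 2 kilobases at the 3′ end, with multi-mapped reads split evenly. The deposited values are raw whole-number counts of 24532 genes in each sample, 8449 of them named by LOC number. The deposited table also holds, as a signal, the authors' size-factor-scaled counts and their mean, and the log2 fold change, its standard error and the p-value of the authors' comparison of the 2 tumor entities; none of these was used, and 0 columns of per-sample counts were left out.

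The 8 count columns went into edgeR 4.0.16 under R 4.3.3. After filterByExpr (minimum count 10, minimum total count 15) and TMM scaling, each remaining gene was tested by the quasi-likelihood test with dog and site as terms. A call required both a log2FC of 1 or more in size and a Benjamini-Hochberg adjusted p no higher than 0.05; log2FC is metastasis minus primary tumor, with an SE taken from the F statistic of the test. The dog is a block because the labels place both samples of a number in 1 animal. The samples of a dog deviated together from their site means, with correlations across genes of 0.425 to 0.723. Between dogs the correlations were at most 0.090. Centering on the mean of 4 samples pushes these down when those within dogs are positive, so they are no independent contrast. Each sample is 1 tissue block of 1 dog. Differences per dog are of log2 CPM with a prior count of 2 and TMM factors over the 15 AGASAC samples, and counting intervals are exact binomial ones at 95%, which cover counting error only. Libraries of a site, compared by chi-square, held 0 duplicates (at least 26.0 per degree of freedom). The calculation was tested on simulated data.

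The alternatives were the fit without the block, DESeq2 1.42.0, limma-voom (limma 3.58.1), RLE or library size alone, other filters, Benjamini-Yekutieli adjustment as in the study, no fold threshold, all 11 primary tumors, and leaving out each dog. Named genes are the called ones, the genes with the smallest p in each direction to make 12 with a symbol, the same sign in all 4 dogs and a log2FC of at least 1 in size, the 3 highest members of each list, and KRT7, KRT8, KRT18, KRT19, EPCAM, PIP and PTHLH; members of the lists beyond these were picked after their values were seen. The samples compared, the gene lists and the rules were chosen with earlier results of these data known. A list of 13 mitochondrial transcripts had 0 members in the table. Gene names are those of the table, and no coordinates or sequences are given, because the reference annotation available here is not of CanFam3.1. The values of 1 member of the T cell list are not reported here.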

Additional observations from a re-analysis of the deposited data

Results flagged for a closer look

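Of 57 sets of 4 values checked, 1 per dog, 5 held a dog far from the other 3 by Dixon's criterion, which by chance alone marks about 1 set in 20. For POSTN the log2 difference of dog 1 was −0.33, against −2.29, −2.12 and −2.15 in dogs 2, 3 and 4. For KRT8 it was 0.90 in dog 4, against −0.20, −0.37 and −0.15 in dogs 1, 2 and 3. For PIP it was 0.21 in dog 3, the only dog with a higher value in the metastasis. The summed level of neutrophil and mast cell genes had a log2 ratio of −0.51 in dog 1, against 1.67, 1.79 and 1.90 in dogs 2, 3 and 4, and in the primary tumors and metastases these sums were low, at 9.57 to 66.6 CPM. The summed level of peripheral nerve genes had a log2 ratio of −0.073 in dog 2, against −0.80, −0.84 and −0.88 in dogs 1, 3 and 4.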

How the results depend on the processing

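The count of called genes was 1 in the paired fit and also with RLE, with library size alone, with Benjamini-Yekutieli adjustment and with no fold threshold. Without the replicate block it was 0, and unadjusted p was under 0.05 for 145 genes. It was 0 with limma-voom (544 genes under 0.05), 0 with at least 10 counts required in every sample (407 genes), a filter that removes ACTA1, and 0 for all 11 primary tumors (305 genes), with 0 lower in each. DESeq2 called 10 (2 higher, 8 lower) and edgeR with no filter 21 (6 higher, 15 lower). Leaving out 1 dog at a time gave 1 to 2 calls, all lower, and the 2 calls came without dog 3 and were ACTA1 and AMIGO2. Without dog 4, whose pair was split over extraction batches, ACTA1 remained called (adjusted p = 0.00240, edgeR). The adjusted p of ACTA1 was 1.2e-28 to 1.00 over the 13 alternatives. The log2FC changed sign against all 11 primary tumors for ADIPOQ (−1.85), GM2A (−1.58), KRT7 (−0.20) and PTHLH (0.17), and without the block for PTHLH (0.054) and EPCAM (−0.0045). Over the fits that left out 1 dog, KRT7 ranged from −0.18 to 0.25, KRT8 from −0.24 to 0.18, KRT19 from −0.026 to 0.20, EPCAM from −0.040 to 0.045 and PTHLH from −1.86 to 0.42. None of these genes was called in any setting, and the cause was not tested. The 8 libraries held 2857541 to 3505749 counts, and 3 counts are 0.870 to 1.04 CPM, so levels under that could not be compared.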
